A study of Mus musculus with 12 samples.

Results

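The genes described here are the secreted Wnt ligands, their receptors and the secreted proteins that enhance or block them, measured in mouse lung after 3 days of hypoxia. A gene was taken if its symbol on the array was Wnt, Fzd, Sfrp, Dkk or Rspo followed by a number, or was Frzb, Wif1, Lrp5, Lrp6, Ror1, Ror2, Axin2 or Apcdd1. The rule found 50 of 22180 genes, namely 19 Wnt ligands, 14 receptors, 4 R-spondins, 10 secreted inhibitors, 2 feedback genes and 1 transcript from the strand opposite a receptor gene, Fzd10os. Each gene is represented by 1 transcript cluster, the group of probes along 1 transcribed region, and for a gene with several it is the one whose mean over the 12 arrays was highest. Axin2, Lrp6 and Sfrp2 were the 3 genes with over 1 cluster.

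Wnt proteins are lipid-modified signals that act over short distances. In the canonical route a Wnt binds a Frizzled receptor (Fzd genes) together with the coreceptor Lrp5 or Lrp6, which stops the destruction of β-catenin and lets it enter the nucleus, where it acts with TCF/LEF transcription factors. In other routes, for which Wnt5a and its receptors Ror1 and Ror2 are the standard example, Wnt proteins guide cell polarity and movement without β-catenin. R-spondins (Rspo genes) keep the receptors on the cell surface. Secreted frizzled-related proteins (Sfrp genes and Frzb) and Wif1 bind Wnt proteins outside the cell, while Dickkopf proteins such as Dkk1 bind Lrp5 and Lrp6. In the lung, Wnt2 and Wnt2b are known from the start of lung development, Wnt7b from the growing epithelium, and Wnt5a from branching and from the vessel wall.

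Lungs of 12 C57BL/6J mice were compared, of which 6 breathed 10% oxygen in a normobaric chamber and 6 breathed 21% oxygen, both for 3 days. The methods describe male mice matched for age and weight, and the age of these mice is not given in the sources used here. RNA of the left lobe was hybridised to 1 whole-transcript array per mouse, and the deposited values are RMA levels on a log2 scale, on which a difference of 1 is a 2.00-fold change. Whole tissue was measured, so a change in the number of cells of a type and a change in RNA per cell cannot be told apart. The arrays correlated with each other at 0.983 to 0.989 and their medians lay between 5.89 and 5.95. The alveolar markers of the lung were measured in every mouse, with Sftpc of type 2 cells between 13.32 and 13.43 and Ager of type 1 cells between 11.78 and 12.0. Of 8 type 2 markers 1 was lower in hypoxia, Etv5, with a median difference of -0.13 over the list, and of 8 type 1 markers 1 was lower, Rtkn2, with a median of -0.10. Mice are named by their group and the replicate number in the labels.

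Of the 50 genes, 3 were higher in hypoxia and 0 lower at an adjusted p under 0.05 (limma on all transcript clusters, of which 4.47% passed, two-sided, Benjamini-Hochberg adjustment). They were Sfrp1, Sfrp4 and Wnt5a. This share, 6%, is near the background, since 6.03% of the 22180 genes passed the same threshold in either direction. By direction, 3.9% of all genes were higher and 2.14% lower. At an unadjusted p under 0.05 there were 5 of the 50 genes, all with hypoxia higher, whereas 19.5% of all genes lay there in either direction and 10.3% with hypoxia higher. The median difference over the 50 genes was 0.005 on the log2 scale, beside -0.01 over all genes, and 27 lay above 0 and 23 below. The 47 genes that did not pass differed by -0.18 to 0.23 on the log2 scale, and every one of their 95% intervals lay within 0.5 of 0. For 30 of them the interval lay within 0.3 of 0. The lowest bound was -0.48, for Sfrp5, and the highest was 0.42, for Dkk3. Only 24 of the 50 genes lay above the median level of all clusters, and no call of presence was made. A narrow interval at a low level therefore does not show that a gene was unchanged. Only 1 of the 50 genes, Sfrp1, had groups that did not overlap, whereas 5.7% of all genes had groups apart in either direction and 3.55% with hypoxia higher.

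**Figure D1:**
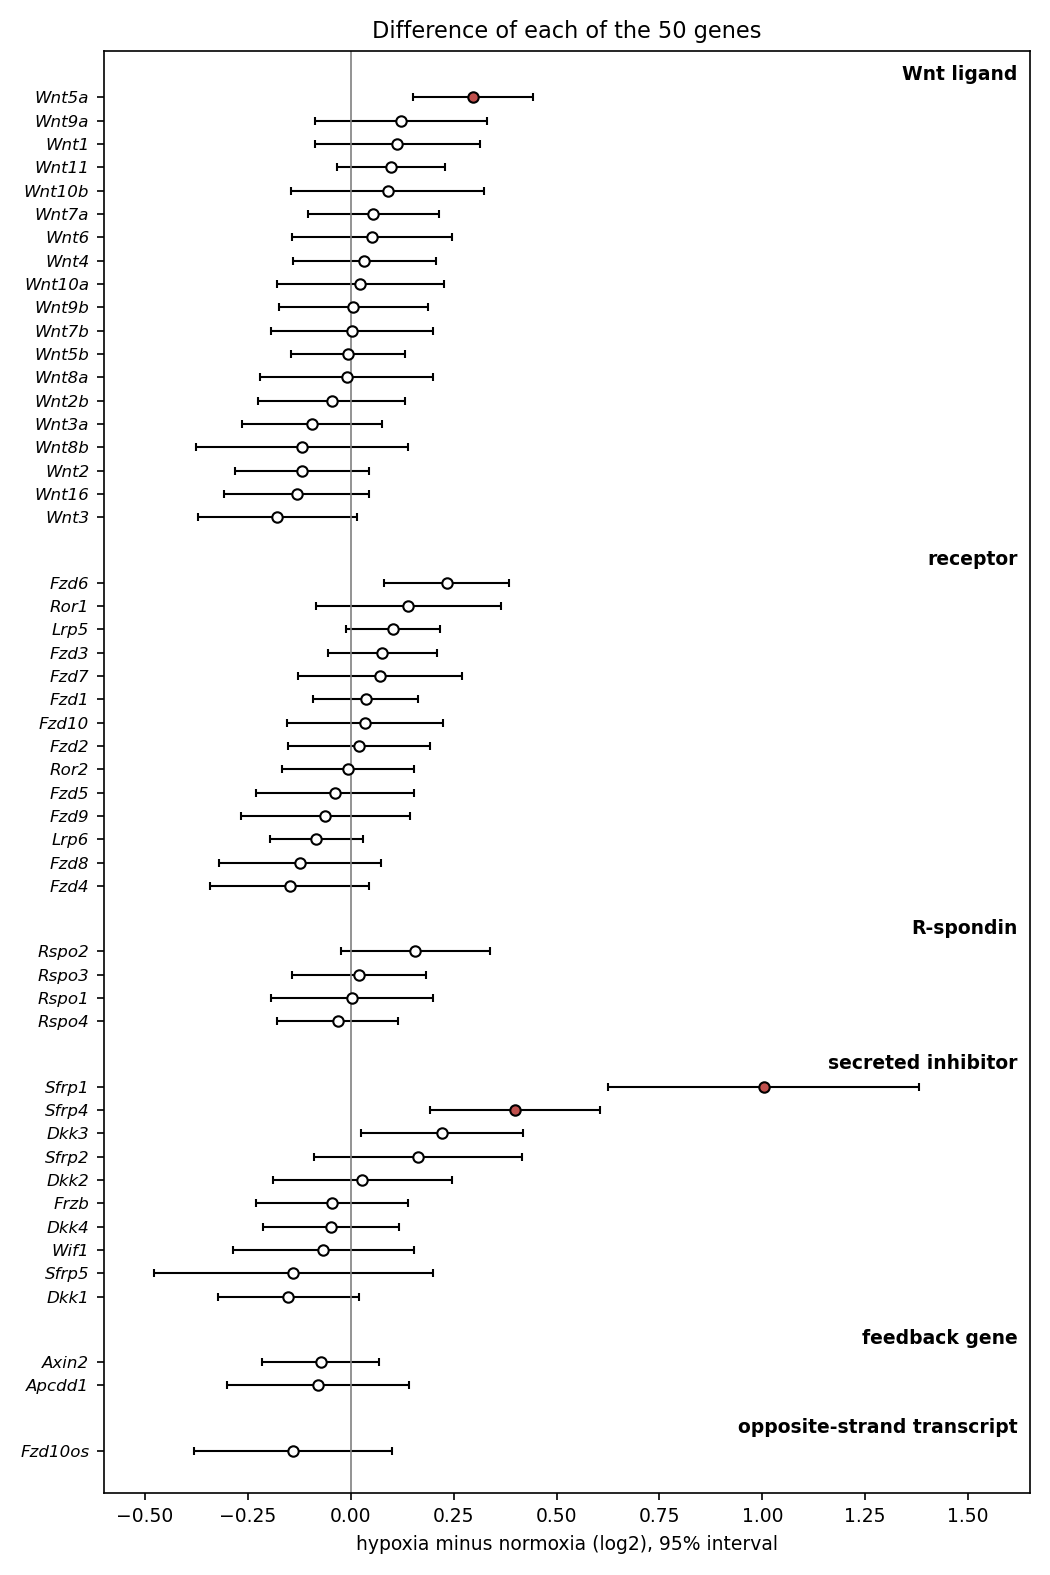
Difference between 6 hypoxic and 6 normoxic mice for each of the 50 genes, on the log2 scale, ordered by size within each role. Bars are 95% intervals from limma, and filled points mark an adjusted p under 0.05. Only Sfrp1 (1.0), Sfrp4 (0.40) and Wnt5a (0.30) are filled, and the other 47 points lie between -0.18 and 0.23.

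Among the 19 Wnt ligands, Wnt5a alone passed the threshold. Wnt5a (transcript cluster 17298112), a ligand known mainly for signalling without β-catenin, ranged from 5.10 to 5.37 in normoxia (median 5.14) and from 5.35 to 5.62 in hypoxia (median 5.47). Of the 6 hypoxic mice, 5 lay above every normoxic mouse, and the groups overlapped at 1 hypoxic mouse. All levels of Wnt5a lay below the lowest array median, 5.89. The mean rose from 5.18 ± 0.11 to 5.48 ± 0.10 (SD, n = 6 mice each), a difference of 0.30 on the log2 scale (SE 0.07, 95% interval 0.15 to 0.44) or 1.23-fold, with an adjusted p of 0.0240 by limma. The call was lost when any 1 of 7 arrays was left out, namely normoxic mouse 2, 3, 4 or 6 or hypoxic mouse 1, 3 or 6. Over all 12 such fits the difference lay between 0.27 and 0.33 and the adjusted p between 0.0123 and 0.0557.

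The other 18 ligands differed by -0.18 to 0.12 on the log2 scale and their adjusted p by limma lay between 0.349 and 0.991. Wnt3, a ligand of the β-catenin route, was next by p. Its levels were 3.75 to 4.11 in normoxia (median 3.91) and 3.57 to 4.01 in hypoxia (median 3.76), a difference of -0.18 with an adjusted p of 0.349, and 3 hypoxic mice lay below every normoxic one. Wnt11, which acts mostly without β-catenin, ranged from 5.46 to 5.78 in normoxia (median 5.66) and from 5.68 to 5.85 in hypoxia (median 5.72). Its difference was 0.10 (95% interval -0.03 to 0.23) with an adjusted p of 0.470. The 2 ligands with the highest mean level, Wnt7a and Wnt2b, overlapped almost fully between the groups. Wnt7a lay between 6.87 and 7.15 in normoxia (median 7.0) and between 6.94 and 7.21 in hypoxia (median 7.04), a difference of 0.06 (95% interval -0.10 to 0.21). Wnt2b lay between 6.39 and 6.84 in normoxia (median 6.54) and between 6.39 and 6.72 in hypoxia (median 6.52), a difference of -0.05 (95% interval -0.23 to 0.13). Both missed the threshold by a wide margin, with adjusted p of 0.788 for Wnt7a and 0.846 for Wnt2b by limma.

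Among the remaining ligands, the developmental lung ligand Wnt2 ranged from 6.01 to 6.47 in normoxia (median 6.23) and from 5.93 to 6.23 in hypoxia (median 6.14). Its difference was -0.12 (95% interval -0.28 to 0.04) with an adjusted p of 0.487. Wnt7b, a ligand of the lung epithelium, ranged from 5.14 to 5.59 in normoxia and from 5.24 to 5.66 in hypoxia, with a difference of 0.0033 and an adjusted p of 0.991. Wnt4 differed by 0.03 and Wnt5b, the closest relative of Wnt5a, by -0.01 (95% interval -0.14 to 0.13), whereas Wnt5a itself rose. The difference between Wnt5a and Wnt5b was not tested. The widest interval among the ligands was that of Wnt8b, -0.38 to 0.14, on a level between 3.62 and 4.36. Wnt2, Wnt7b, Wnt4, Wnt5b and Wnt8b are outside the rule for naming genes, and their values had been seen when they were picked.

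**Figure D2:**
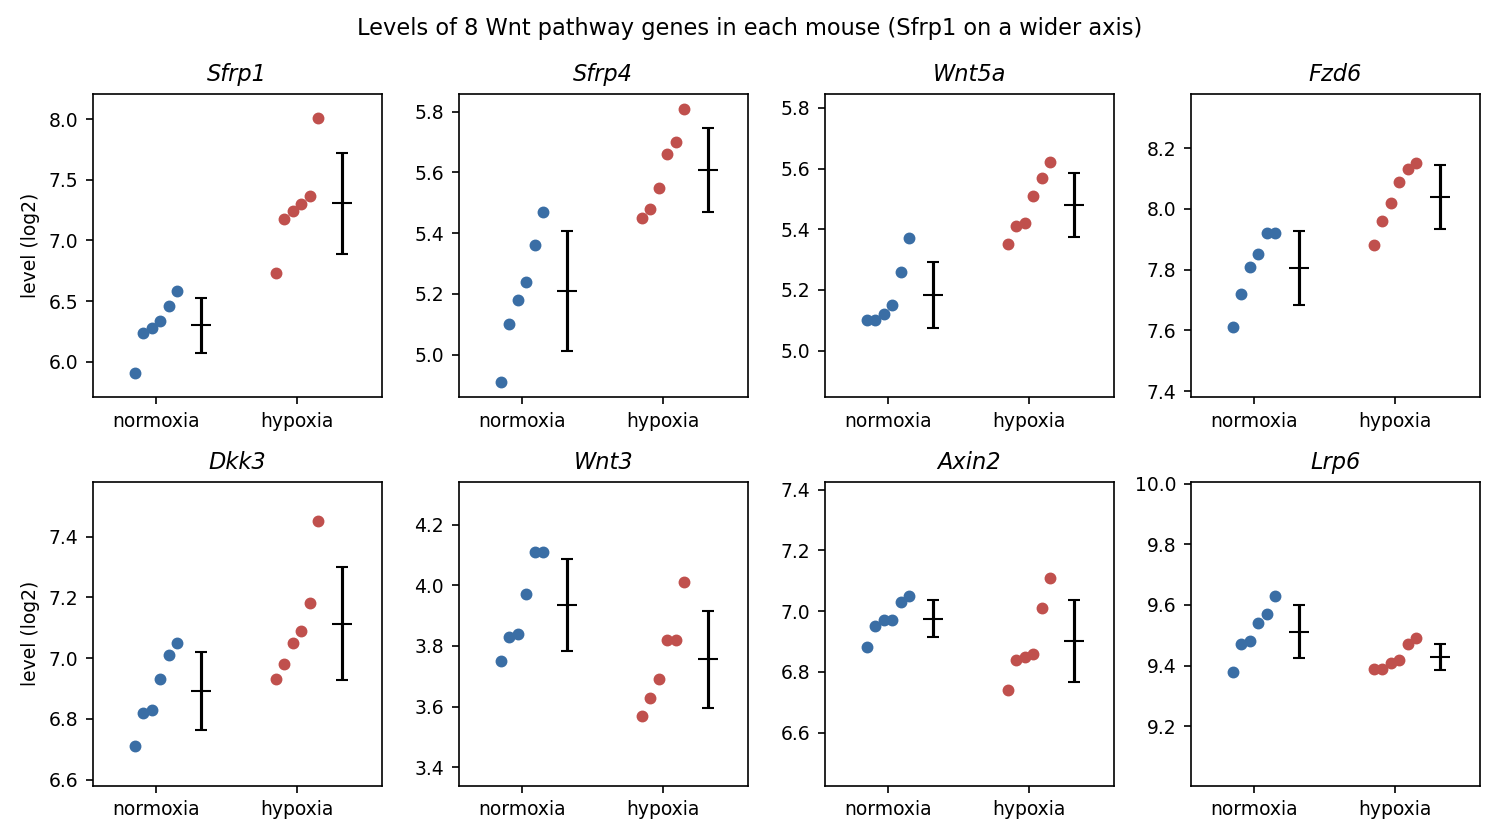
Log2 level of 8 genes in each mouse, with 6 normoxic (blue) and 6 hypoxic mice (red). Points are mice spread sideways by level, and bars give the mean ± SD. Each axis spans the same range except that of Sfrp1, whose 6 hypoxic mice (6.73 to 8.01) all lie above the 6 normoxic mice (5.91 to 6.58).

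None of the 14 receptors passed the threshold, and they differed by -0.15 to 0.23 on the log2 scale. Only 1 of them, Fzd6, had an unadjusted p under 0.05. Fzd6, a Frizzled best known from planar cell polarity, ranged from 7.61 to 7.92 in normoxia (median 7.83) and from 7.88 to 8.15 in hypoxia (median 8.06), and 5 hypoxic mice lay above every normoxic mouse. The difference was 0.23 (SE 0.07, 95% interval 0.08 to 0.38) with an adjusted p of 0.0896 by limma. With clusters above the median level only, or with single-symbol clusters only, its adjusted p was 0.0393 and 0.0479. The coreceptor Lrp5 lay between 8.68 and 8.83 in normoxia (median 8.73) and between 8.69 and 8.91 in hypoxia (median 8.87), a difference of 0.10 (95% interval -0.01 to 0.22, adjusted p = 0.361 by limma). The coreceptor Lrp6 lay between 9.38 and 9.63 in normoxia (median 9.51) and between 9.39 and 9.49 in hypoxia (median 9.42), a difference of -0.08 (95% interval -0.20 to 0.03, adjusted p = 0.485). The other cluster of Lrp6 differed by -0.01 with an adjusted p of 0.973. For both coreceptors the groups overlapped.

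Fzd4, the Frizzled that also binds the vessel growth signal norrin, ranged from 8.91 to 9.30 in normoxia (median 9.15) and from 8.80 to 9.23 in hypoxia (median 8.95). Its difference was -0.15 (95% interval -0.34 to 0.04) with an adjusted p of 0.459. The Wnt5a receptors Ror1 and Ror2 differed by 0.14 (95% interval -0.09 to 0.37) and -0.01 (95% interval -0.17 to 0.15). Their adjusted p by limma were 0.572 and 0.979, so neither receptor passed where the ligand did, and no test of the difference between receptor and ligand was made. Fzd1 differed by 0.04, Fzd5 by -0.04, Fzd7 by 0.07, Fzd8 by -0.12 and Fzd9 by -0.06. Ror1, Ror2, Fzd10 and these 5 Frizzled genes lie outside the rule for naming genes. Fzd10os, the transcript opposite Fzd10, had levels between 5.65 and 6.00 in normoxia (median 5.72) and between 5.35 and 5.94 in hypoxia (median 5.54), with a difference of -0.14 and an adjusted p of 0.604, while Fzd10 itself differed by 0.04.

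None of the 4 R-spondins passed the threshold, and 0 had an unadjusted p under 0.05. Rspo2, an R-spondin of lung mesenchyme, lay between 4.44 and 4.71 in normoxia (median 4.49) and between 4.43 and 4.93 in hypoxia (median 4.70), a difference of 0.16 (95% interval -0.02 to 0.34, adjusted p = 0.388 by limma). Rspo3, which in mice is known from endothelium, lay between 5.49 and 5.82 in normoxia (median 5.71) and between 5.50 and 5.84 in hypoxia (median 5.72), a difference of 0.02 (adjusted p = 0.934). Rspo1 had the highest mean of the family, between 7.60 and 8.0 in normoxia (median 7.66) and between 7.41 and 7.91 in hypoxia (median 7.71), a difference of 0.0033 (95% interval -0.19 to 0.20, adjusted p = 0.991). Rspo4 differed by -0.03, on levels of 5.10 to 5.39 in normoxia (median 5.26) and 5.08 to 5.29 in hypoxia (median 5.26), with an adjusted p of 0.877. In all 4 genes the groups overlapped, and the 95% intervals of the family ran from -0.19 to 0.34.

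The secreted inhibitors held 2 of the 3 genes that passed, Sfrp1 and Sfrp4. Of the 10 secreted inhibitors 20% passed, beside 6.03% of all genes in either direction. Their median difference was -0.0083, and 5 lay above 0 and 5 below. Sfrp2, Sfrp5 and Frzb, of the same frizzled-related family, did not pass. Sfrp1 (transcript cluster 17500068), which binds Wnt proteins through a domain like that of Frizzled, ranged from 5.91 to 6.58 in normoxia (median 6.31) and from 6.73 to 8.01 in hypoxia (median 7.27). All 6 hypoxic mice lay above all 6 normoxic mice. The mean rose from 6.30 ± 0.23 to 7.30 ± 0.41 (SD, n = 6 mice each), a difference of 1.0 on the log2 scale (SE 0.17, 95% interval 0.63 to 1.38) or 2.00-fold, with an adjusted p of 0.00503 by limma. The call held without any 1 array, with differences of 0.86 to 1.12 and adjusted p of 0.00174 to 0.0138. The hypoxic mice also varied most in this gene, since an SD of 0.41 was the highest of any of the 50 genes in either group.

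Sfrp4 (transcript cluster 17285546), a relative of Sfrp1, ranged from 4.91 to 5.47 in normoxia (median 5.21) and from 5.45 to 5.81 in hypoxia (median 5.61). Of the 6 hypoxic mice, 5 lay above every normoxic mouse. All levels of Sfrp4 lay below the lowest array median, 5.89. The mean rose from 5.21 ± 0.20 to 5.61 ± 0.14 (SD, n = 6 mice each), a difference of 0.40 on the log2 scale (SE 0.10, 95% interval 0.19 to 0.60) or 1.32-fold, with an adjusted p of 0.0324 by limma. The call was lost without normoxic mouse 1, 3, 4 or 6 or hypoxic mouse 2, 3, 4 or 5, which is 8 of 12 arrays. Across the 12 fits the difference was 0.34 to 0.45 and the adjusted p 0.0174 to 0.0728.

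The other 8 secreted inhibitors differed by -0.15 to 0.22. Dkk3, a divergent Dickkopf whose place in Wnt signalling is unsettled, ranged from 6.71 to 7.05 in normoxia (median 6.88) and from 6.93 to 7.45 in hypoxia (median 7.07). Its difference was 0.22 (95% interval 0.03 to 0.42) with an adjusted p of 0.232 by limma, and 3 hypoxic mice lay above every normoxic mouse. Sfrp2 lay between 6.52 and 6.99 in normoxia (median 6.86) and between 6.75 and 7.31 in hypoxia (median 6.96), a difference of 0.16 (95% interval -0.09 to 0.42, adjusted p = 0.552). Its other cluster differed by 0.18 with an adjusted p of 0.606. Dkk1, the best known blocker of Lrp5 and Lrp6, lay between 5.37 and 5.72 in normoxia (median 5.6) and between 5.20 and 5.59 in hypoxia (median 5.46), a difference of -0.15 (95% interval -0.32 to 0.02, adjusted p = 0.375). The remaining 5 genes, Sfrp5, Wif1, Dkk2, Dkk4 and Frzb, differed by -0.14, -0.07, 0.03, -0.05 and -0.05, and all 5 overlapped between the groups. Dkk1 and these 5 genes lie outside the rule for naming genes.

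Axin2 and Apcdd1 are switched on by β-catenin and dampen the pathway, Axin2 as a scaffold for β-catenin destruction and Apcdd1 as a membrane protein that binds Wnt and Lrp5. Axin2 lay between 6.88 and 7.05 in normoxia (median 6.97) and between 6.74 and 7.11 in hypoxia (median 6.86). The difference was -0.07 (95% interval -0.22 to 0.07) with an adjusted p of 0.660 by limma, and 4 hypoxic mice lay below every normoxic mouse while 1 lay above. The other cluster of Axin2 differed by -0.15 (95% interval -0.31 to 0.01, adjusted p = 0.326). Apcdd1 lay between 5.84 and 6.36 in normoxia (median 6.14) and between 5.87 and 6.35 in hypoxia (median 6.00), a difference of -0.08 (95% interval -0.30 to 0.14, adjusted p = 0.777).

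Promoters of the members were read from RefSeq (GRCm38.p6), where 32 of the 50 genes had an entry. Sfrp1, Sfrp4 and Wnt5a were not among them. The core word of TCF/LEF sites was searched in the 250 bases before the start on either strand, as the word CTTTGAA, or with its end changed the word CTTTGAT, the word CTTTGTA or the word CTTTGTT. It was present in 4 of 32 members (12.5%), beside 16.8% of 27025 genes. Counted by window, 4 of 35 windows of members (11.4%) and 14.8% of 32851 windows held it. The core of the hypoxia response element, which was searched as the word ACGTG and the word GCGTG on either strand, was present in 17 of 32 members (53.1%) and in 41.5% of genes, and by window in 19 of 35 (54.3%) and 38.6%. The cores have no word in common, and a match is a description of the letters only. The 4 members shown are those with a TCF/LEF word among the 32 with an entry, and whether the pathway acts there was not tested. The window of Axin2 held no such word. Each stretch runs 5′ to 3′ on the strand of the gene, from 150 to 31 bases before the start, and capitals mark the word or its reverse complement. They are Fzd7 (chr1:59481997-59482116, plus strand), Wnt5b (chr6:119449417-119449536, minus strand, 1 of 3 starts), Wnt11 (chr7:98834962-98835081, plus strand, 1 of 2 starts) and Dkk1 (chr19:30549527-30549646, minus strand).
Fzd7: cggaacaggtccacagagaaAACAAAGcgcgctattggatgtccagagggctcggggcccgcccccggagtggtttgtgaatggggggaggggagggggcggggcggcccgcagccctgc
Wnt5b: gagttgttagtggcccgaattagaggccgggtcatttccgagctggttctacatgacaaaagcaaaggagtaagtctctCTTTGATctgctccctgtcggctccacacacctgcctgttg
Wnt11: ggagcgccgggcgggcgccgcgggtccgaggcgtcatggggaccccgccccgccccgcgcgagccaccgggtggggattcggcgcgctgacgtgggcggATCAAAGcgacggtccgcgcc
Dkk1: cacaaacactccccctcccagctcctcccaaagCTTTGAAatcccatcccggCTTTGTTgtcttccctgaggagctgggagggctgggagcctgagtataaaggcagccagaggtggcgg
In Dkk1 the pair of words lies 117 and 98 bases before the start, and in Fzd7, Wnt5b and Wnt11 the word lies 130, 71 and 51 bases before it. None of the 4 genes passed the threshold. On the log2 scale Fzd7 differed by 0.07 (6.72 to 7.07 in normoxia, 6.58 to 7.07 in hypoxia), Wnt5b by -0.01, Wnt11 by 0.10 and Dkk1 by -0.15.

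Other genes of the pathway were followed in 4 lists outside the 50 genes. They were chosen with earlier results of these data known, so their shares are descriptions only. In the list of Wnt release and extracellular cofactors, 4 of 27 genes were higher and 0 lower, with a median difference of -0.02. These are 14.8% of the list, beside 6.03% of all genes in either direction and 3.9% that were higher. At an unadjusted p under 0.05 there were 10 of 27, beside 19.5% of all genes. Trabd2b, a membrane protease known to cut and inactivate Wnt proteins, ranged from 7.46 to 7.80 in normoxia (median 7.66) and from 8.12 to 8.51 in hypoxia (median 8.38), a rise of 0.69 (SE 0.08, adjusted p = 3.49e-04 by limma). Cthrc1, a secreted protein that binds Wnt and Frizzled, rose by 0.75 (SE 0.11, adjusted p = 0.00141) from 6.31 to 6.94 (median 6.45) to 7.14 to 7.44 (median 7.28). Gpc4, a heparan sulfate proteoglycan that holds Wnt proteins at the cell surface, rose by 0.60 (SE 0.10, adjusted p = 0.00302) from 6.00 to 6.47 (median 6.27) to 6.64 to 7.11 (median 6.85). In these 3 genes all hypoxic mice lay above all normoxic mice. Lgr6, an R-spondin receptor, rose by 0.29 with an adjusted p of 0.0477, and that call was lost in 10 of 12 fits that left out 1 array, all but those without normoxic mouse 1 and hypoxic mouse 4. Porcn and Wls, which attach the lipid to Wnt proteins and carry them to the surface, differed by 0.07 and -0.02 with adjusted p of 0.704 and 0.924.

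In the β-catenin route inside the cell, 0 of 26 measured genes were higher and 2 lower, with a median difference of -0.04. These are 7.69% of the list, beside 6.03% of all genes in either direction and 2.14% that were lower. At an unadjusted p under 0.05 there were 6 of 26, beside 19.5% of all genes. Lef1, a transcription factor that β-catenin binds, fell by 0.46 (SE 0.09, adjusted p = 0.0116 by limma), from 7.50 to 8.0 in normoxia (median 7.68) to 7.05 to 7.48 in hypoxia (median 7.26), and the groups did not overlap. Tle1, a corepressor of TCF/LEF factors, fell by 0.33 (SE 0.08, adjusted p = 0.0315), and this call was lost in 8 of 12 fits that left out 1 array, namely normoxic mouse 2, 3, 4 or 5 or hypoxic mouse 1, 2, 3 or 5. Ctnnb1, which encodes β-catenin, differed by -0.01 (95% interval -0.11 to 0.09, adjusted p = 0.930). Lef1 is also a gene of T cells. Of 7 measured T and B cell markers 1 was lower, Cd3g by 0.61, and the median difference was -0.32. All 7 differences lay below 0. The 4 with an unadjusted p under 0.05 by limma were T cell genes, namely Cd3g, Cd3d (-0.55), Cd3e (-0.37) and Cd8a (-0.32). The summed log2 level of a list is the log2 of its summed linear levels, so its most abundant genes weigh most. For the 7 markers it lay between 9.76 and 10.52 in normoxia and between 9.61 and 9.88 in hypoxia, with the B cell genes Cd79a and Ms4a1 the most abundant. The part of these cells in the Lef1 values was not tested.

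Of 16 measured genes known to respond to β-catenin, 1 was higher and 2 lower, with a median difference of 0.01. These are 18.8% of the list, beside 6.03% of all genes. The list was chosen with earlier results of these data known, so the share is a description only. It counts Lef1 again, which is also in the β-catenin route, and leaves out Axin2 and Apcdd1, which are members. Ccn4, a secreted matrix protein, rose by 0.73 (SE 0.10, adjusted p = 0.00109 by limma) from 5.81 to 6.31 in normoxia (median 5.95) to 6.55 to 6.97 in hypoxia (median 6.76). Bambi, a decoy receptor for TGF-β signals, fell by 0.55 (SE 0.08, adjusted p = 0.00210) from 6.56 to 6.91 (median 6.71) to 5.94 to 6.27 (median 6.21). The groups did not overlap for either gene, and the other gene that fell was Lef1. At an unadjusted p under 0.05 there were 5 of 16, beside 19.5% of all genes. Among them Ccnd1, the cyclin D1 gene, differed by 0.20 (adjusted p = 0.165) and Myc by 0.21 (adjusted p = 0.201). The remaining genes of the list differed by -0.11 (Notum) to 0.18 (Nkd2), with adjusted p by limma between 0.484 and 0.979. Of these, Sp5, Nkd1, Lgr5, Rnf43 and Znrf3 differed by 0.05, -0.01, -0.02, -0.04 and -0.055. Ccnd1, Myc and these genes lie outside the rule for naming genes. Of 13 measured genes of the planar polarity route, 0 were higher and 1 lower, which is 7.69% beside 6.03% of all genes. At an unadjusted p under 0.05 there were 3 of 13, beside 19.5% of all genes. Prickle2, a core protein of that route, fell by 0.39 (SE 0.06, adjusted p = 0.00352) from 8.08 to 8.33 in normoxia (median 8.16) to 7.60 to 7.92 in hypoxia (median 7.80).

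**Figure D3:**
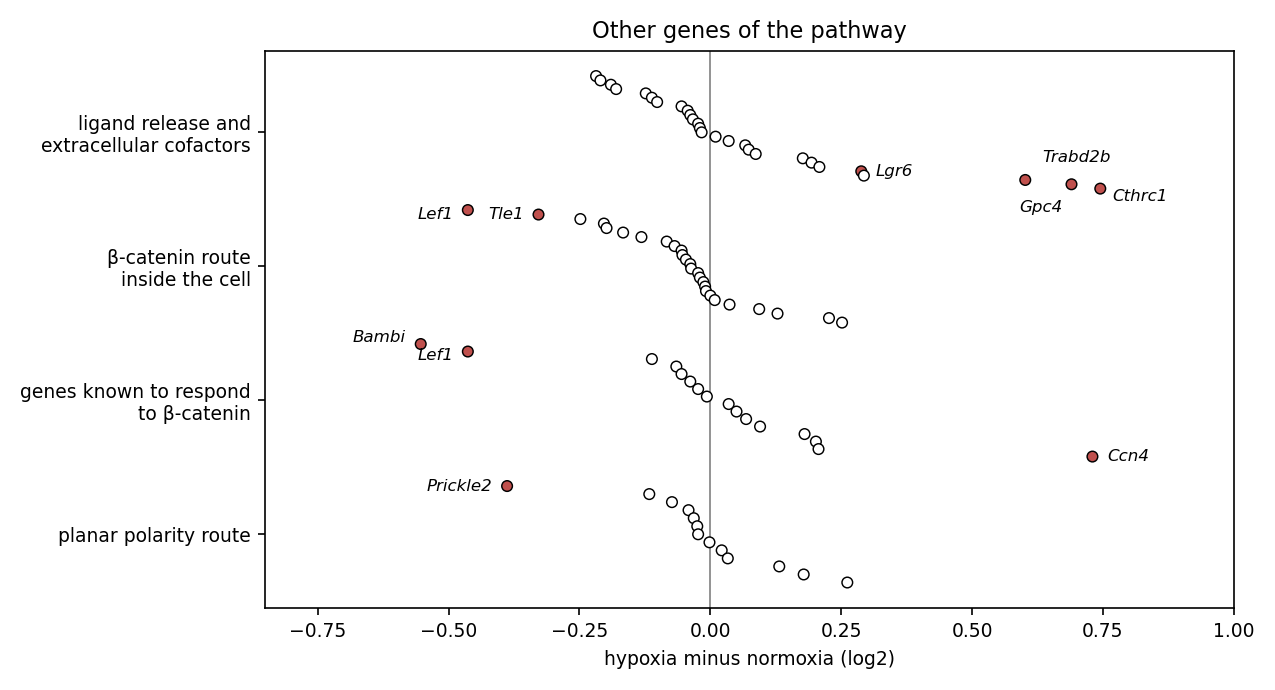
Difference between 6 hypoxic and 6 normoxic mice, on the log2 scale, for each gene of 4 Wnt pathway lists outside the 50 genes; each point is a gene, spread vertically by rank, and filled points mark an adjusted p under 0.05 by limma. Trabd2b, Cthrc1, Gpc4, Lgr6 and Ccn4 lie at 0.29 to 0.75, and Bambi, Lef1, Prickle2 and Tle1 at -0.55 to -0.33.

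Genes of several cell types moved in the same comparison. Sfrp1, Sfrp4 and Wnt5a are known mainly from mesenchymal cells, so marker lists of such cells are given beside them. Of 8 smooth muscle markers 7 were higher and 0 lower, and their summed log2 level lay between 11.52 and 11.89 in normoxia and between 12.42 and 12.85 in hypoxia. Of 12 fibroblast markers 5 were higher and 1 lower, with summed levels of 13.48 to 13.63 and 13.66 to 13.82. The 5 were the collagen genes Col1a1, Col1a2 and Col3a1 with Mfap4 and Pi16, the lower gene was Inmt (-0.44), and the median over the list was 0.28. Those that did not pass were Lum (0.29), Tcf21 (0.265), Meox2 (0.24), Pdgfra (0.045), Npnt (-0.02) and Dcn (-0.17). Of 10 pericyte markers 4 were higher and 0 lower, with summed levels of 11.76 to 11.94 and 12.04 to 12.25. The 4 were Higd1b, Cspg4, Notch3 and Ndufa4l2. Those that did not pass were Kcnj8 (0.325), Cox4i2 (0.23), Abcc9 (0.18), Rgs5 (0.175), Pdgfrb (0.14) and Gucy1a1 (-0.11). Of 7 markers of dividing cells 7 were higher, with summed levels of 8.96 to 9.25 and 10.10 to 10.55. Of 10 endothelial markers 1 was higher and 3 lower, with summed levels of 13.48 to 13.65 and 13.38 to 13.52. Of 8 markers each, airway secretory cells had 4 higher and 2 lower, macrophages 1 higher and 1 lower, and ciliated cells 0 higher and 1 lower. Of 7 mesothelial markers 0 passed. RMA levels have no zero, so no marker is absent on this scale. The part of these cell types in the values of Sfrp1, Sfrp4 and Wnt5a was not tested.

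**Figure D4:**
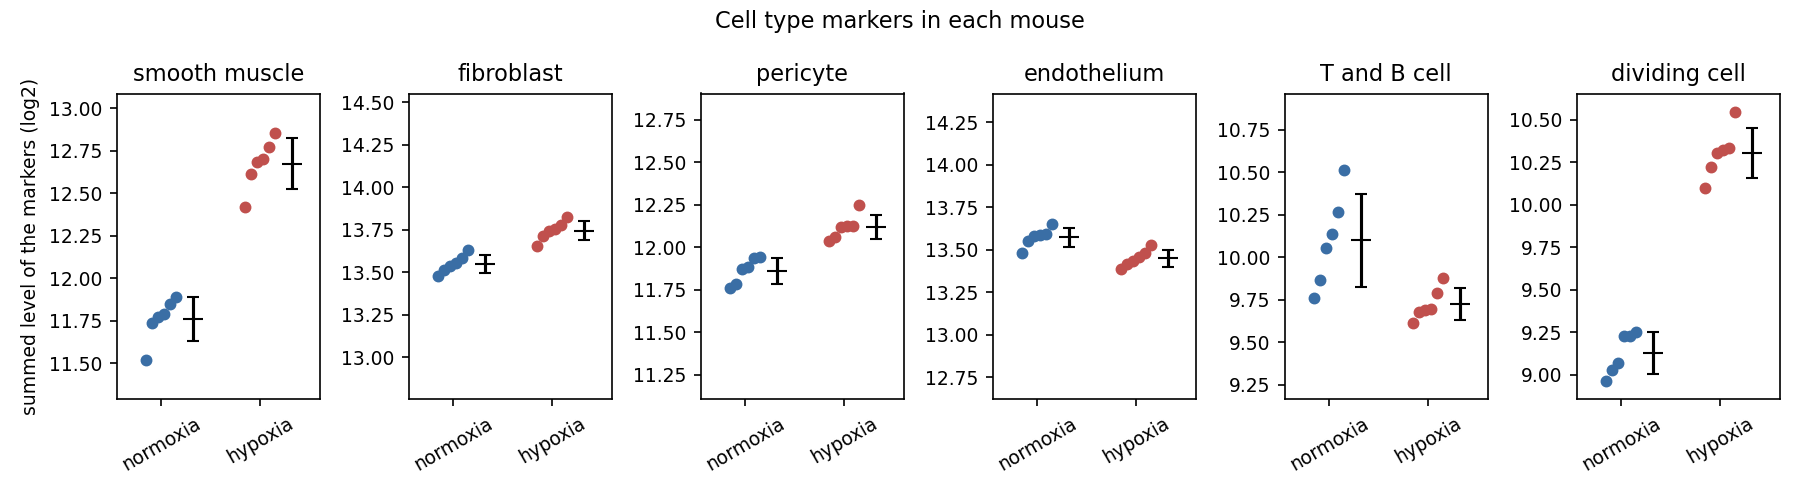
Log2 of the summed linear levels of the markers of 6 cell types in each of 6 normoxic (blue) and 6 hypoxic mice (red). Bars give the mean ± SD, and the axes have equal span. Smooth muscle (11.52 to 11.89 in normoxia, 12.42 to 12.85 in hypoxia) and dividing cell markers (8.96 to 9.25, 10.10 to 10.55) show groups far apart, whereas those of T and B cells overlap.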

How the data were processed

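RNA of 12 left lung lobes was hybridised to Mouse Gene 2.0 ST arrays. The authors ran RMA in the Affymetrix Expression Console (versions not stated), which gave the deposited log2 levels after background correction and normalization. Of 41345 rows, 190 control rows were left out. Of 41155 clusters, 23521 carry 1 gene symbol, 1820 several and 15814 none in the platform annotation.

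Hypoxia was compared with normoxia in limma 3.58.1 (R 4.3.3; lmFit, eBayes, group alone) over all 41155 clusters, and the plain analysis of variance that the methods name was an alternative. The labels do not say whether mice shared a cage or litter. The signal of background probes was not used here, so no call of presence was made, and 24 of the 50 genes lay above the median level of all clusters.

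Named with values were members past the threshold, the 3 with the smallest p and the 2 with the highest mean in each role, Axin2, Apcdd1, Lrp5 and Lrp6, the 3 members on either side of the threshold, and up to 6 genes past it in each pathway list. Genes outside this rule are marked in the text, or were taken for their role or promoter. Members and lists were chosen with earlier results of these data known. Marker lists of alveolar, airway, ciliated, mesothelial and macrophage cells were also counted. Permutations used scipy 1.17.1 and plots matplotlib 3.10.9, with tables made in pandas 2.3.3 and numpy 2.4.6 under Python 3.11.15. Promoters came from RefSeq tables, and no genome was used here. Alternatives were another test, another prior, array weights, further normalization, filters, the mean of clusters, the replicate number as a block, and each array left out.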

Additional observations from a re-analysis of the deposited data

Results flagged for a closer look

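In groups of 6 mice, a single value far from the other 5 was searched for with Dixon's test at its 95% level, which chance passes in about 1 of 20 groups. It was found in 6 of 100 groups of the 50 genes, each in a different gene, and in 0 of 18 groups of the 9 named genes of the pathway lists. Frzb in hypoxic mouse 2 was at 2.73, and the others of its group lay between 3.08 and 3.27. Fzd10 in the same mouse was at 3.63, with the others between 3.22 and 3.31. Lrp5 in hypoxic mouse 3 was at 8.69, with the others between 8.83 and 8.91. Rspo1 in normoxic mouse 6 was at 8, with the others between 7.60 and 7.68. Sfrp2 in normoxic mouse 2 was at 6.52, with the others between 6.83 and 6.99. Wnt7b in the same mouse was at 5.14, with the others between 5.49 and 5.59. None of these 6 genes passed the threshold.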

How the results depend on the processing

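Sfrp1 passed in all 12 fits without 1 array and in all 9 other settings. The number of the 50 genes that were higher was 1 to 3 without single arrays and 0 were lower. It was 3 with the plain analysis of variance, a trend with a robust prior, array weights, quantile normalization, subtracted array medians and the mean of clusters. It was 4 with single-symbol clusters only, which added Fzd6. With clusters above the median level only it was Sfrp1 and Fzd6 among 24 genes tested, since Sfrp4 and Wnt5a lay below that level. The replicate numbers do not pair the mice (correlation of deviations -0.01 to 0.07, and 2 of 12 arrays correlate best with their own number). With them as a replicate block, 682 clusters were higher and 279 lower over all, and Wnt5a (adjusted p = 0.111), Lgr6 (0.125), Lef1 (0.0721) and Tle1 (0.0873) were lost. The genes lower in the β-catenin route then numbered 0 and the responding genes lower 1. With array medians subtracted the β-catenin route had 1 lower gene, without Tle1 (adjusted p = 0.0621). With clusters above the median level only, 1 gene of that route was higher (Tcf7l1), and 1 release gene was lower (Tspan12). With single-symbol clusters only Tcf7l1 was likewise the 1 higher gene. Both filters and the trend with a robust prior added Adgra2 and Igfbp4 as higher release genes and Tle4 as a lower gene of the route. Array weights and subtracted medians also added Adgra2, whose adjusted p in the main limma fit was 0.0511. The plain analysis of variance added Igfbp4 as higher and Csnk1a1 as lower, and lost Lgr6. With either filter the differences were those of the main fit, and the prior and the adjustment covered fewer clusters. The cause of the other changes was not tested. Without single arrays, 3 to 4 release genes were higher, 1 to 2 genes of the β-catenin route lower, and 1 to 2 responding genes higher and 2 lower. The added responding gene was Ccnd1, without normoxic mouse 2 (adjusted p = 0.0340 by limma). Differences near 0 changed sign. Rspo1 was at -0.0021 with array weights and between -0.037 and 0.063 without single arrays, Rspo3 lay between -0.019 and 0.061, and Wnt2b between -0.085 and 0.0053.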

Other observations

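Across mice of 1 group, 18 relations among Sfrp1, Sfrp4, Wnt5a and the summed mesenchymal marker levels were computed, each over 6 mice. Pearson's r lay between -0.83 and 0.71, 1 had an unadjusted permutation p under 0.05, and 0 passed after Benjamini-Hochberg adjustment (lowest adjusted p = 0.488). The lowest exact permutation p of Spearman's rho was 0.103 (adjusted p = 0.711). With 6 mice per relation hardly any but a near-perfect relation could pass, so these tests cannot decide on weaker ones.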
